A study of Mus musculus with 8 samples.

Results

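The Cyp2 genes encode the largest family of cytochrome P450 enzymes in mouse liver. Members were taken as every row of the 2 expression tables whose gene name is Cyp2 followed by a subfamily letter and a number. They are 48 of 24662 features in the CMV table and 42 of 27261 features in the αSMA table, and 48 different genes in all. The 6 members listed in the CMV table alone are Cyp2c66, Cyp2j7, Cyp2j11, Cyp2j12, Cyp2j13 and Cyp2w1. The study measured polyadenylated RNA of liver tissue from 8 mice that had received an adeno-associated virus of serotype 6 (AAV6), in 4 groups of 2. Its title concerns thrombospondin-2, the matricellular protein made from Thbs2, in hepatic stellate cells and liver fibrosis. In the first arm the vectors were AAV6-CMV-NC (controls 1 and 2) and AAV6-CMV-shThbs2 (knockdown 1 and 2), named for the cytomegalovirus promoter, which works in most cells. In the second arm they were AAV6-αSMA-NC (controls 3 and 4) and AAV6-αSMA-shThbs2 (knockdown 3 and 4), named for α smooth muscle actin, which activated stellate cells express and hepatocytes do not. All 8 mice, controls included, thus carried a vector. The labels give no age, sex, strain or liver injury, and no liver without a vector was analysed here. Biomarker Technologies sequenced the CMV libraries on a HiSeq2500, and Frasergen sequenced the αSMA libraries on a DNBSEQ-T7. Effects of vector, instrument and company on the arms cannot be told apart.

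P450 enzymes are heme proteins of the endoplasmic reticulum that take electrons from P450 reductase and insert oxygen into drugs, toxins, steroids and fatty acids. In liver the Cyp2 family is made mainly by hepatocytes. Its members are known for induction by foreign compounds through the receptors CAR and PXR, for differences between male and female mice set by growth hormone, and for zones around the central or portal veins. Most members lie in gene clusters that arose by duplication, so neighbours can be almost identical in sequence.

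Expression is given as FPKM, the fragments of a gene per kilobase of its transcript relative to all mapped fragments, and the read depth behind the values is unknown. Between 10769 and 12852 features per library reached 1 FPKM. The targeted gene Thbs2 measured 1.27 and 0.922 FPKM in the CMV controls against 0.695 and 0.614 FPKM with the hairpin. The αSMA values were 1.37 and 1.47 FPKM with NC and 0.85 and 1.14 FPKM with shThbs2. In both arms the groups stood apart. Separation of this kind was common, at 42.0% of the CMV features and 74.9% of the αSMA features that entered the tests below. Taken alone it does not show a knockdown. Thbs2 averaged less than 1 FPKM in the CMV arm, under the filter given below, and was not tested there. Hepatocyte markers were present in every library, with 8 of the 9 listed and a summed level of 33335 to 67105 FPKM. The FPKM sum of the αSMA libraries moved with the group, from 941530.2 and 924060.0 in the controls to 1253737 and 1225210 in the knockdown. The share of mitochondrially encoded transcripts in that sum moved too, from 12.1% and 12.2% to 23.1% and 24.6%. Under the CMV vectors the sums lay between 491931 and 514641, and the mitochondrial share between 13.3% and 15.8%. The part of these shifts in the Cyp2 values was examined only by rescaling. Less RNA per cell and fewer cells of a type cannot be told apart in bulk tissue.

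A member was tested where its mean over the 4 libraries of an arm was at least 1 FPKM. Each test was limma's moderated linear model on log2(FPKM + 1), with p-values adjusted over all features tested in the arm and a threshold of 0.05. A log2 change is that of FPKM + 1, which understates the change of low genes. For the CMV libraries 30 members were tested, 9 were above 0 but under the filter and 9 were at 0 in all 4 libraries. Under the αSMA vectors 29 were tested, 13 were under the filter and 0 were at 0 throughout. One gene in each arm reached the filter through a single group, Cyp2c39 through the CMV controls and Cyp2c38 through the αSMA knockdown.

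With CMV vectors 0 of 30 tested members passed, where 0.0183% of all tested features did. At an unadjusted p under 0.05 there were 9 members, 4 higher and 5 lower with shThbs2, which is 30.0% of the members against 10.2% of all features. The 5 lower include Cyp2c39, which reached the filter through the controls alone. In the αSMA arm 15 of 29 passed, which is 51.7% of the members against 36.1% of all tested features. At an unadjusted p under 0.05 there were 20 (69.0%, against 49.9% of all features). Of the 15 that passed the adjusted threshold, 13 were higher with shThbs2, or 44.8% of the tested members against 13.3% of all features. The other 2 were lower, or 6.90% against 22.8%. The 13 include Cyp2c38, which reached the filter through the knockdown group alone. The split depended on the scaling. Rescaled to the same FPKM sum, 9 members were higher and 6 lower, where 52.1% of all features were called. The family's share of calls was then not above that of all features. Rescaled to the same sum of nuclear features they numbered 11 and 5 (42.4% of all features called), and with median centring 14 and 0 (33.6%). The median log2 change of the tested members was 0.18 in the CMV arm and 0.48 in the αSMA arm, beside 0.03 and −0.16 for all tested features. Changes above 0 were measured for 19 of the 30 CMV members, where 56.3% of all features were above 0, and for 21 of the 29 αSMA members, where 40.8% were. The groups did not overlap for 20 CMV members (66.7%, against 42.0% of all features) and for 24 αSMA members (82.8%, against 74.9%).

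The 15 αSMA calls rested on all 4 libraries. Without control 3, limma called only Cyp2a4 and Cyp2a22. Without control 4 it called 0 members. Without knockdown 3 it called Cyp2a22 and Cyp2b10 as higher and Cyp2c23 as lower, and without knockdown 4 it called 10 higher and 2 lower. Over all tested features the calls fell in the same fits to 0.407%, 0.354%, 8.54% and 31.8%. With no filter on low values, 6 members were called higher (Cyp2b10, Cyp2a22, Cyp2c38, Cyp2b13, Cyp2c39 and Cyp2a4), with 0 lower, and 7.28% of all features were called.

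**Figure D1:**
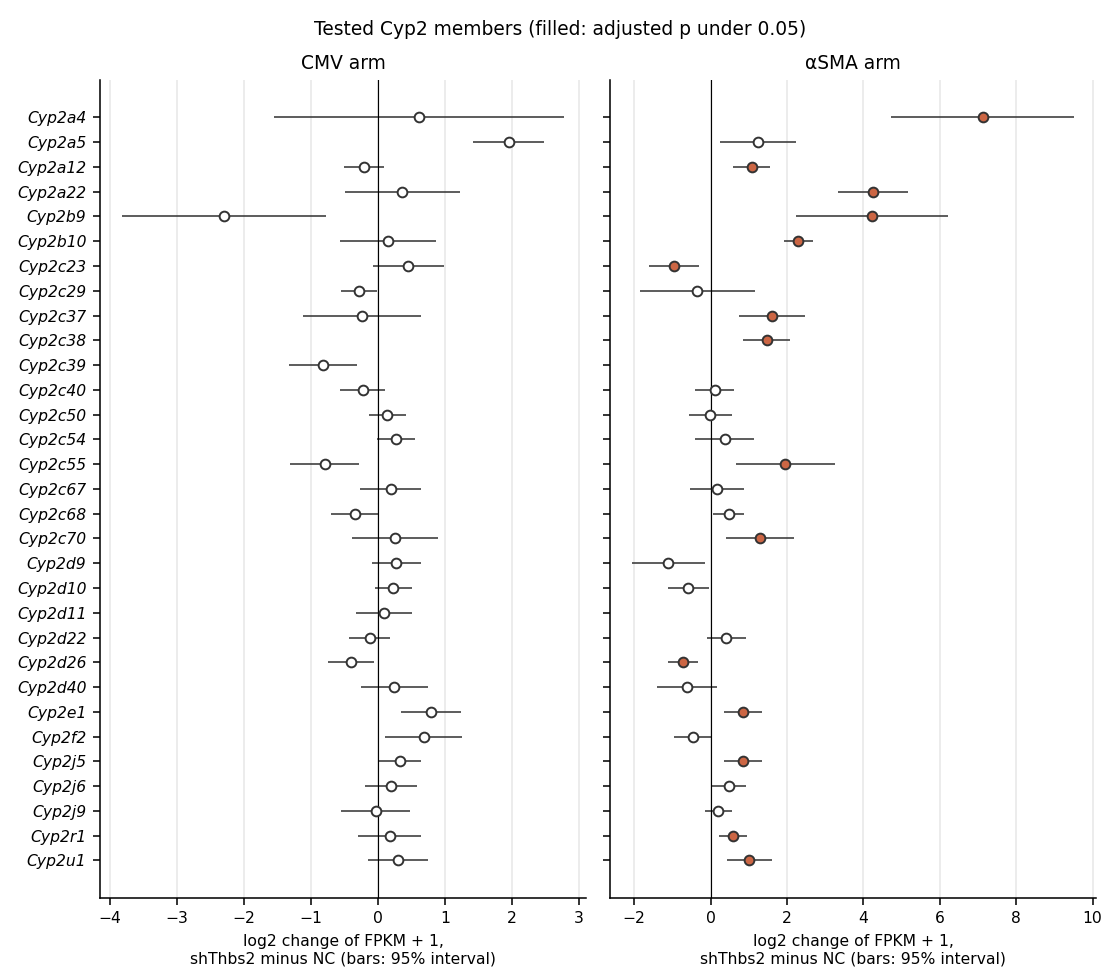
Log2 change of FPKM + 1 (shThbs2 minus NC) of every tested Cyp2 member, with its 95% interval, in the CMV arm and the αSMA arm; filled points passed an adjusted p of 0.05. All CMV points are open, while 13 αSMA points lie filled to the right of 0 and 2 to the left, with Cyp2a4 farthest out at 7.12.

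The largest changes lay in the Cyp2a and Cyp2b subfamilies, whose genes share a cluster of 13 members on chromosome 7 (chr7:25802475-27158668, GRCm38). The promoters of the 6 tested Cyp2a and Cyp2b genes are shown here. All of these genes but Cyp2a5 passed as higher in the αSMA arm, and the sequences show how alike the paralogs are. They are RefSeq sequences of build GRCm38.p6, from 250 bases before to 50 bases after the annotated start. Capitals mark TATAAA, the letters of a TATA box, and TTGCNNAA, a motif like the site of C/EBP factors, on either strand.
Cyp2a4: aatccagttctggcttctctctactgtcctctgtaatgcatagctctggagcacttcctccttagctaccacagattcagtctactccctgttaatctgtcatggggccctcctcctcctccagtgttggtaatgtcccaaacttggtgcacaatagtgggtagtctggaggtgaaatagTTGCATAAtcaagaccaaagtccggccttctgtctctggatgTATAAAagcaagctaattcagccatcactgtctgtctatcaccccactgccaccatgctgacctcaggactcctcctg
Cyp2a5: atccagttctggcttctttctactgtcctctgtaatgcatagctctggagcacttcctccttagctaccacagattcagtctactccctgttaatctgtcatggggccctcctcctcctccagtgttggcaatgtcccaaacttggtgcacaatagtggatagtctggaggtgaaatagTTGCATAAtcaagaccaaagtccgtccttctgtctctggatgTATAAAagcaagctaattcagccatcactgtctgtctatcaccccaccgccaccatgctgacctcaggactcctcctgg
Cyp2a12: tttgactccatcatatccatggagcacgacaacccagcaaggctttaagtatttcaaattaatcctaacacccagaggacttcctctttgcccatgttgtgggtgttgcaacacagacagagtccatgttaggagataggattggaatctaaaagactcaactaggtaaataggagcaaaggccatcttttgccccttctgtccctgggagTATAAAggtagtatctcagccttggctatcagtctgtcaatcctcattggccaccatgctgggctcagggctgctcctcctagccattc
Cyp2a22: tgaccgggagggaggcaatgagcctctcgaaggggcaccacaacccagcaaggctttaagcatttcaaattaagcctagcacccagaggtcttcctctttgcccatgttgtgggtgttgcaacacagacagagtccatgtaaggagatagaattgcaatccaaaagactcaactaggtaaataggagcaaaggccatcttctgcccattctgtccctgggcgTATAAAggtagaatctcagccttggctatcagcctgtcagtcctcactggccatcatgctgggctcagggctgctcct
Cyp2b9: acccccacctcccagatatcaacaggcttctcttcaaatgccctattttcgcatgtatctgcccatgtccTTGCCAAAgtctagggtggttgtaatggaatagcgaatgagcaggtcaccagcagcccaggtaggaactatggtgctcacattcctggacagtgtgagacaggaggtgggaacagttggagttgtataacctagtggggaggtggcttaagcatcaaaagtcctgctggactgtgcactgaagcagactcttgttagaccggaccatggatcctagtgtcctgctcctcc
Cyp2b10: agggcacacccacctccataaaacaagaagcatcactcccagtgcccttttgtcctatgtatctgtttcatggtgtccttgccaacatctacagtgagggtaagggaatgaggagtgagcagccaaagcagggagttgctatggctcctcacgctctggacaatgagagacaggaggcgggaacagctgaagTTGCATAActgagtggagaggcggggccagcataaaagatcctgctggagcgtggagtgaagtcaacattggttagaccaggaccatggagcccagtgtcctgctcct
The windows lie at chr7:26306942-26307241, plus strand, for Cyp2a4, chr7:26835089-26835388, plus strand, for Cyp2a5, and chr7:27028840-27029139, plus strand, for Cyp2a12. Those of the others are chr7:26939337-26939636, minus strand, for Cyp2a22, chr7:26173159-26173458, plus strand, for Cyp2b9, and chr7:25897408-25897707, plus strand, for Cyp2b10.

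The Cyp2a4 and Cyp2a5 windows were identical at 294 of 299 aligned bases (98.3%). Cyp2a12 and Cyp2a22 shared 259 of 282 (91.8%), and Cyp2b9 and Cyp2b10 shared 223 of 289 (77.2%). The TATAAA run began 28 bases before the start in Cyp2a4 and Cyp2a22, 29 before it in Cyp2a5 and 39 before it in Cyp2a12. Neither Cyp2b window holds those letters. TTGCNNAA began 70 and 71 bases before the start in Cyp2a4 and Cyp2a5, 58 before it in Cyp2b10 and 180 before it in Cyp2b9, and it overlapped no TATAAA run. Of the 40 members with a window in the table, 21 held TATAAA and 13 held TTGCNNAA, beside 13.62% and 10.8% of all 32851 windows. A member was counted if any of its windows held the letters, while the percentages count single windows. The other motifs were searched on both strands. CAAAGTCCA, a form of the HNF4 site, was in windows of 6 members and in 0.47% of all windows. The 6 were all of the Cyp2c subfamily (Cyp2c40, Cyp2c65, Cyp2c67, Cyp2c68, Cyp2c69 and Cyp2c70). TTCNNNGAA, the STAT5 site, was in windows of Cyp2j11 and Cyp2j12 and in 8.3% of all windows. The D-box TTATGTAA was in 0 members and 0.94% of all windows. A match is a description of these letters and not a bound site.

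Cyp2a4 (chr7:26307169-26315088, plus strand), a steroid hydroxylase that female mouse liver expresses more than male liver, changed most. Under the αSMA vectors it measured 23.1 and 2.02 FPKM with NC and 1457 and 971 FPKM with shThbs2. Both knockdown libraries were far above both controls, and the controls themselves differed by about an order of magnitude. The means were 12.6 ± 14.9 and 1214 ± 344 FPKM (SD, n = 2), a ratio of 96.6 and a log2 change of 7.12 (SE 0.95, 95% interval 4.73 to 9.52, limma adjusted p = 0.00927). In the CMV arm Cyp2a4 measured 4.45 and 44.7 FPKM with NC and 23.5 and 22.8 FPKM with shThbs2. There the knockdown lay between the controls, and the log2 change of 0.61 did not pass (SE 0.89, limma adjusted p = 0.852). Its sign depended on the control kept, at −0.92 without control 1 and 2.15 without control 2.

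Cyp2a5 (chr7:26835305-26843548, plus strand), which hydroxylates coumarin and nicotine, is the gene most like Cyp2a4. It had the smallest p of all CMV members. Its CMV values were 11.6 and 17.2 FPKM with NC and 64.4 and 51.0 FPKM with shThbs2. The groups stood well apart, with means of 14.4 ± 3.93 and 57.7 ± 9.48 FPKM (SD, n = 2) and a ratio of 4.02. The log2 change of 1.95 (SE 0.22, 95% interval 1.42 to 2.47) missed the threshold with a limma adjusted p of 0.0947. With 1 library left out this change lay between 1.68 and 2.21. In the αSMA arm Cyp2a5 measured 159 and 157 FPKM with NC and 569 and 251 FPKM with shThbs2 (log2 change 1.25, SE 0.39, limma adjusted p = 0.0576). The αSMA groups did not overlap, and the knockdown libraries were far apart from each other. Without knockdown 4 the αSMA change was 1.84.

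Cyp2a22 (chr7:26931631-26939384, minus strand) rose in the αSMA arm from 4.47 and 1.73 FPKM to 62.3 and 85.4 FPKM. That is a ratio of 23.8 and a log2 change of 4.26 (SE 0.36, limma adjusted p = 0.00563), with groups far apart. Its CMV values, 8.77 and 20.0 FPKM with NC and 19.4 and 15.6 FPKM with shThbs2, overlapped (0.36, SE 0.35, adjusted p = 0.77). Cyp2a12 (chr7:27029081-27037375, plus strand), a steroid hydroxylase and the most abundant Cyp2a gene of the CMV libraries, rose in the αSMA arm from 266 and 209 FPKM to 527 and 473 FPKM. Its ratio there was 2.1 (log2 change 1.08, SE 0.19, limma adjusted p = 0.0155). Under the CMV vectors it measured 370.3 and 413 FPKM with NC and 351 and 329 FPKM with shThbs2, slightly lower in both knockdown libraries (−0.20, SE 0.12, adjusted p = 0.615).

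The summed FPKM of the 4 Cyp2a genes still depends in part on how shared reads were divided, since the transcripts differ in length and Cyp2a4 and Cyp2a5 also share windows with a pseudogene outside the sum. The sum was 5.34 times as high with shThbs2 in the αSMA arm, from 453 and 370.3 to 2615 and 1779.8 FPKM (4.01 times when rescaled to the same FPKM sum), and was level in the CMV arm (395 and 495 against 458 and 418 FPKM, a ratio of 0.985). Cyp2a4 made up 3.05% of the αSMA Cyp2a sum in the controls and 55.2% in the knockdown. No test was made on sums, for which 2 libraries against 2 allow no exact permutation p below 0.333. The pseudogene Cyp2a21-ps, which the name rule leaves out, also rose in the αSMA arm, from 17.3 and 3.20 FPKM to 296 and 338 FPKM (log2 change 5.18, limma adjusted p = 0.00881). Adding its row, a choice made after seeing the data, gave a Cyp2a ratio of 5.96.

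Cyp2b10 (chr7:25897620-25926624, plus strand), the classic phenobarbital-induced target of CAR, had the smallest p of all αSMA members. It measured 25.4 and 23.7 FPKM in the αSMA controls and 129 and 121 FPKM in the knockdown. Replicates were close and groups far apart, at 24.6 ± 1.24 and 125 ± 5.61 FPKM (SD, n = 2). The ratio was 5.07 (log2 change 2.3, SE 0.15, 95% interval 1.92 to 2.67, limma adjusted p = 0.00351). For the CMV libraries it measured 93.6 and 180.3 FPKM with NC and 137 and 152 FPKM with shThbs2, with the knockdown inside the range of the controls (0.15, SE 0.30, adjusted p = 0.898).

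Cyp2b9 (chr7:26173411-26210661, plus strand), a steroid hydroxylase with female-biased expression, had opposite signs in the arms. Under the αSMA vectors it rose from 4.62 and 0.02 FPKM to 35.2 and 54.5 FPKM (log2 change 4.23, SE 0.79, limma adjusted p = 0.0173). With CMV vectors it measured 5.38 and 24.9 FPKM with NC and 2.32 and 1.08 FPKM with shThbs2. Both CMV knockdown libraries were below both controls, but the controls spread widely and the change of −2.29 did not pass (SE 0.62, adjusted p = 0.344). With 1 library left out this change lay between −3.30 and −1.28. Of the other Cyp2b genes, Cyp2b13 was at 0 in all CMV libraries and at 0.05, 0, 0.37 and 0.33 FPKM in the αSMA libraries, controls first. Cyp2b19 and Cyp2b23 did not exceed 0.0989 FPKM in any library. The summed Cyp2b level was 6.31 times as high in the αSMA arm, from 30.1 and 23.7 to 164 and 176 FPKM (4.76 times when rescaled to the same FPKM sum), and was 99.0 and 205 against 139.5 and 153 FPKM in the CMV arm (ratio 0.962).

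**Figure D2:**
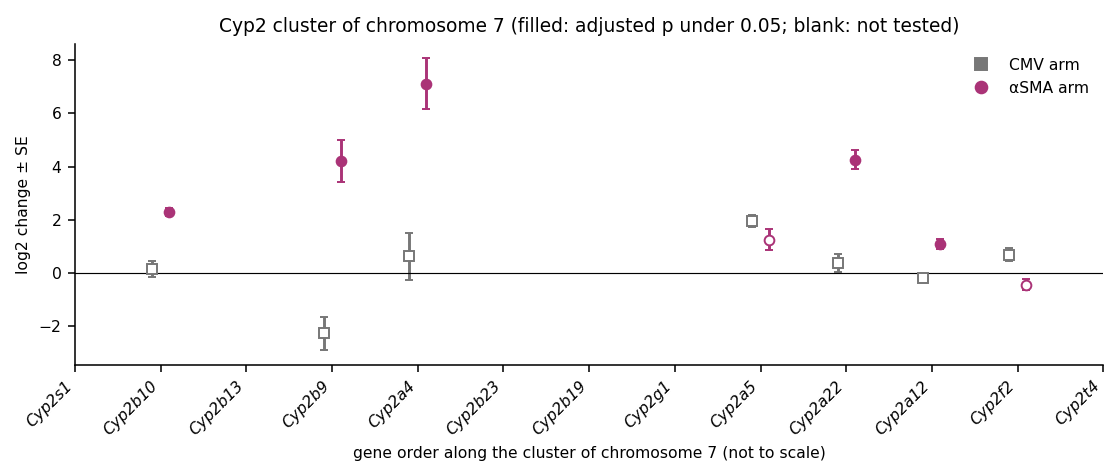
Log2 change of FPKM + 1 (shThbs2 minus NC, bars ± SE) for the 13 Cyp2 genes of the chromosome 7 cluster in gene order, not to scale; blank positions were not tested and filled points passed an adjusted p of 0.05. The 5 filled points are αSMA values of Cyp2b10, Cyp2b9, Cyp2a4, Cyp2a22 and Cyp2a12, while Cyp2f2 at the far end lies at −0.45.

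Of the 13 genes of this cluster 7 were tested, and 5 of these passed as higher in the αSMA arm, where 13.3% of all tested features did. Cyp2a5 was higher in both αSMA knockdown libraries without passing. Cyp2f2 (chr7:27119909-27133660, plus strand), near the end of the cluster, metabolises naphthalene and is a periportal gene in liver. It measured 361 and 383 FPKM in the αSMA controls and 313 and 236 FPKM in the knockdown, lower in both knockdown libraries (log2 change −0.45, SE 0.20, limma adjusted p = 0.124). It passed as lower when libraries were rescaled to the same FPKM sum. In the CMV arm it went the other way, from 529.6 and 326 FPKM to 716 and 621 FPKM (0.68, SE 0.24, limma adjusted p = 0.438). With 1 library left out this CMV change lay between 0.33 and 1.03. The untested genes of the cluster, Cyp2s1, Cyp2g1, Cyp2t4 and the 3 low Cyp2b genes, stayed under 1 FPKM.

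Transcript sequence limits how far neighbouring members can be told apart. Of the 50-base windows of the Cyp2a4 transcript, 38.0% occurred unchanged in a transcript of another gene, mostly Cyp2a5 (36.1%) and Cyp2a21-ps (11.3%). For Cyp2a5 the share was 40.8%. Cyp2a12 and Cyp2a22 shared 20.4% and 20.5% of their windows, with each other. Cyp2b9 and Cyp2b10 shared 11.2% and 9.69% of theirs with other genes. In the other clusters the share reached 72.1% for Cyp2c40, 52.8% for Cyp2c67, 43.3% for Cyp2c68 and 40.5% for Cyp2d10. Cyp2c23, Cyp2c70, Cyp2f2, Cyp2j9 and Cyp2r1 had 0 shared windows, and Cyp2e1 had 4.76%. The sources used here do not say how the authors assigned reads that match several genes, so the values of Cyp2a4, Cyp2a5 and the highly shared Cyp2c and Cyp2d genes are uncertain as single genes.

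**Figure D3:**
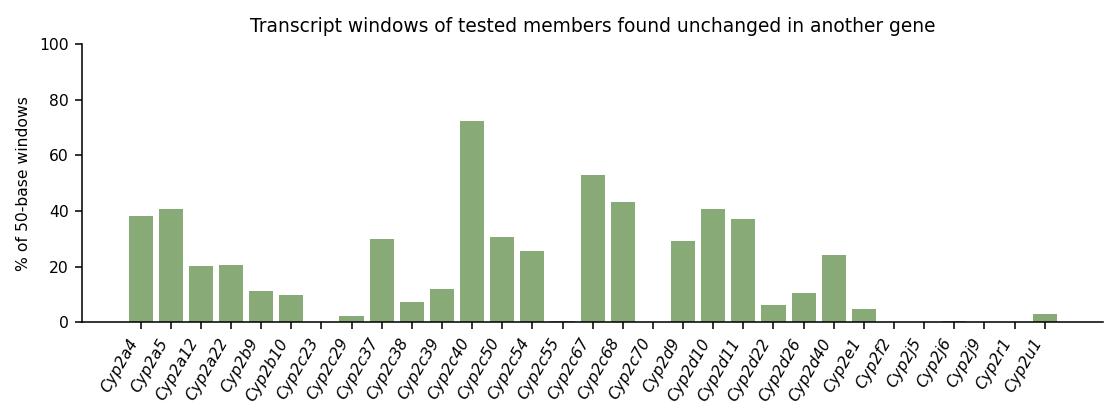
Percent of the 50-base transcript windows of each tested Cyp2 member that occur unchanged in a transcript of another gene (GENCODE M21). The bars reach 72.1% for Cyp2c40 and about 40% for Cyp2a4, Cyp2a5 and Cyp2d10, and are at 0 for Cyp2c23, Cyp2c70, Cyp2f2, Cyp2j9 and Cyp2r1.

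The Cyp2c genes, 15 on chromosome 19 (chr19:39007019-44029208), oxidise arachidonic acid, retinoids and drugs. They are the most abundant subfamily by summed FPKM in the CMV libraries. Of 11 tested in the αSMA arm, 4 passed as higher and 1 as lower, beside 13.3% and 22.8% of all tested features. Of 11 tested in the CMV arm 0 passed. The summed level overlapped in both arms, at 1412 and 1786 against 2417 and 1187 FPKM in the αSMA arm (ratio 1.13, and 0.844 rescaled to the same sum). Under the CMV vectors it was 2675 and 2537 against 2399.6 and 2544 FPKM (ratio 0.949).

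Cyp2c29, an epoxygenase, had the highest mean over the 4 libraries of each arm. Its αSMA values were 689 and 1056 FPKM with NC and 1241 and 362 FPKM with shThbs2, so the 2 knockdown libraries lay on either side of the controls (log2 change −0.35, SE 0.60, limma adjusted p = 0.666). Its CMV values were 1382 and 1422 against 1109 and 1205 FPKM, lower in both knockdown libraries (−0.28, SE 0.11, adjusted p = 0.48).

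Cyp2c37, another arachidonate-oxidising enzyme inducible through CAR, rose in the αSMA arm from 17.5 and 9.45 FPKM to 51.0 and 33.1 FPKM (log2 change 1.60, SE 0.34, limma adjusted p = 0.0233). Its CMV controls, 29.7 and 68.5 FPKM, lay on either side of the knockdown at 39.1 and 37.3 FPKM (−0.24, limma adjusted p = 0.86). With 1 library left out its CMV change lay between −0.83 and 0.35. Cyp2c55, inducible through CAR and PXR, rose in the αSMA arm from 1.32 and 3.16 FPKM to 18.5 and 6.48 FPKM (1.96, SE 0.52, limma adjusted p = 0.0377). For the CMV libraries it went from 32.2 and 21.0 FPKM to 14.3 and 15 FPKM (−0.79, SE 0.21, limma adjusted p = 0.335). With 1 library left out this CMV change lay between −1.09 and −0.50. Both genes were thus higher in both αSMA knockdown libraries, with no such rise in the CMV libraries.

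Cyp2c70, which makes the muricholic bile acids of mice, rose in the αSMA arm from 108 and 206 FPKM to 434 and 313 FPKM (log2 change 1.30, SE 0.35, limma adjusted p = 0.0401), a call lost with rescaling to the same sum. Its CMV groups overlapped, at 548 and 319 against 453 and 552 FPKM (0.26, adjusted p = 0.779). Cyp2c38 was low, rising in the αSMA arm from 0.21 and 0.02 FPKM to 2.58 and 1.63 FPKM (1.47, SE 0.24, limma adjusted p = 0.0135). It reached the filter through the knockdown group alone, so this call is not read as a result. It was between 0.33 and 0.957 FPKM in the CMV libraries and not tested there. Its neighbour Cyp2c39, a retinoic acid hydroxylase, moved alike at a low level, from 0.08 and 0.09 to 1.16 and 0.84 FPKM, under the αSMA filter. With CMV vectors Cyp2c39 measured 1.54 and 2.62 against 0.722 and 0.721 FPKM, lower in both knockdown libraries (−0.82, SE 0.21, adjusted p = 0.312).

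Cyp2c23, an epoxygenase best known from kidney, fell in the αSMA arm from 120.1 and 120.4 FPKM to 78.8 and 48.1 FPKM. The means were 120.2 ± 0.240 and 63.5 ± 21.7 FPKM (SD, n = 2), and limma gave a log2 change of −0.95 (SE 0.26, adjusted p = 0.0403). With median centring this fall was no longer called. In the CMV arm Cyp2c23 measured 92.4 and 67.0 against 127 and 92.5 FPKM, marginally non-overlapping and in the other direction (0.46, SE 0.22, adjusted p = 0.549). Cyp2c68 did not pass in either arm, with 87.8 and 77.2 against 116 and 113 FPKM in the αSMA arm (0.47, adjusted p = 0.0654) and 112 and 135 against 91.5 and 102 FPKM in the CMV arm (−0.35, adjusted p = 0.499). Of the remaining tested Cyp2c genes, Cyp2c40, Cyp2c50, Cyp2c54 and Cyp2c67 had αSMA log2 changes between −0.01 and 0.37 with overlapping groups.

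The Cyp2d genes, 8 on chromosome 15 (chr15:82370527-82794294), are related to the human drug-metabolising enzyme CYP2D6. Their summed level was lower with shThbs2 in the αSMA arm, at 1650.3 and 1783 against 1227 and 915 FPKM (ratio 0.624, and 0.469 rescaled to the same sum). Under the CMV vectors it was 1187 and 1351 against 1295 and 1251 FPKM (ratio 1.00). Of 5 tested αSMA members 1 passed as lower, where 22.8% of all tested features did. Cyp2d26 fell from 554 and 502 FPKM to 317 and 319.6 FPKM (log2 change −0.73, SE 0.16, limma adjusted p = 0.0237), a call lost with median centring. It was also lower in both CMV knockdown libraries, at 449 and 553 against 388 and 367 FPKM (−0.40, SE 0.14, adjusted p = 0.445).

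Cyp2d10, the most abundant Cyp2d member of the αSMA libraries, measured 671 and 684 FPKM with NC and 538 and 382 FPKM with shThbs2 (log2 change −0.58, SE 0.22, limma adjusted p = 0.0874). For the CMV libraries it was higher in both knockdown libraries, at 307 and 289 against 346 and 352 FPKM (0.23, SE 0.11, adjusted p = 0.56). Cyp2d9, a steroid hydroxylase of male mouse liver, measured 332 and 523 against 267 and 141 FPKM in the αSMA arm (−1.10, SE 0.38, adjusted p = 0.0714). Its CMV values were 319 and 411 against 444 and 434 FPKM (0.28, adjusted p = 0.588), so its sign also differed between arms. Cyp2d22 and Cyp2d40 did not pass in either arm. Cyp2d11 was tested in the CMV arm alone (0.09), and Cyp2d12 and Cyp2d34 stayed under the filter in both.

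Cyp2e1 (chr7:140763739-140774987, plus strand), the pericentral enzyme that oxidises ethanol and acetaminophen, was higher with shThbs2 in every knockdown library of both arms. The αSMA values were 400.5 and 447 FPKM with NC and 673 and 872 FPKM with shThbs2 (ratio 1.82, log2 change 0.86, SE 0.20, limma adjusted p = 0.0275). The CMV values were 339.5 and 460.1 against 623 and 749.8 FPKM (ratio 1.72, log2 change 0.79, SE 0.18, limma adjusted p = 0.294). With 1 library left out this CMV change lay between 0.57 and 1.01. The αSMA rise passed and the CMV rise did not, yet the changes differed by only 0.07 (95% interval −0.59 to 0.72, limma adjusted p = 0.875). That interval leaves room for a difference of either sign. Rescaled to the same FPKM sum, the αSMA ratio was 1.37 and was no longer called.

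Of the Cyp2j genes, 8 on chromosome 4 (chr4:96027534-96664154) that make epoxides of arachidonic acid, 3 were tested in each arm. Cyp2j5, the main liver form, rose in the αSMA arm from 59.4 and 69.1 FPKM to 133 and 102 FPKM (log2 change 0.86, SE 0.20, limma adjusted p = 0.0275). It was also higher in both CMV knockdown libraries, at 139 and 117 against 160.5 and 159 FPKM (0.32, SE 0.13, adjusted p = 0.49). Cyp2j6 (0.48, adjusted p = 0.0904) and Cyp2j9 (0.21, adjusted p = 0.297) did not pass in the αSMA arm. Cyp2r1, a vitamin D hydroxylase, rose there from 5.98 and 6.17 FPKM to 10.1 and 9.08 FPKM (0.58, SE 0.14, limma adjusted p = 0.0325), and its CMV groups overlapped, at 7.70 and 6.88 against 6.93 and 10.1 FPKM. Cyp2u1, a fatty acid hydroxylase, rose from 0.76 and 1.43 FPKM to 3.6 and 2.8 FPKM (1.02, SE 0.23, limma adjusted p = 0.0265). Its CMV values were 1.5 and 2.08 against 2.73 and 2.14 FPKM (0.30, adjusted p = 0.618). The Cyp2j5 and Cyp2r1 calls, like that of Cyp2e1, were lost with rescaling to the same sum.

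**Figure D4:**
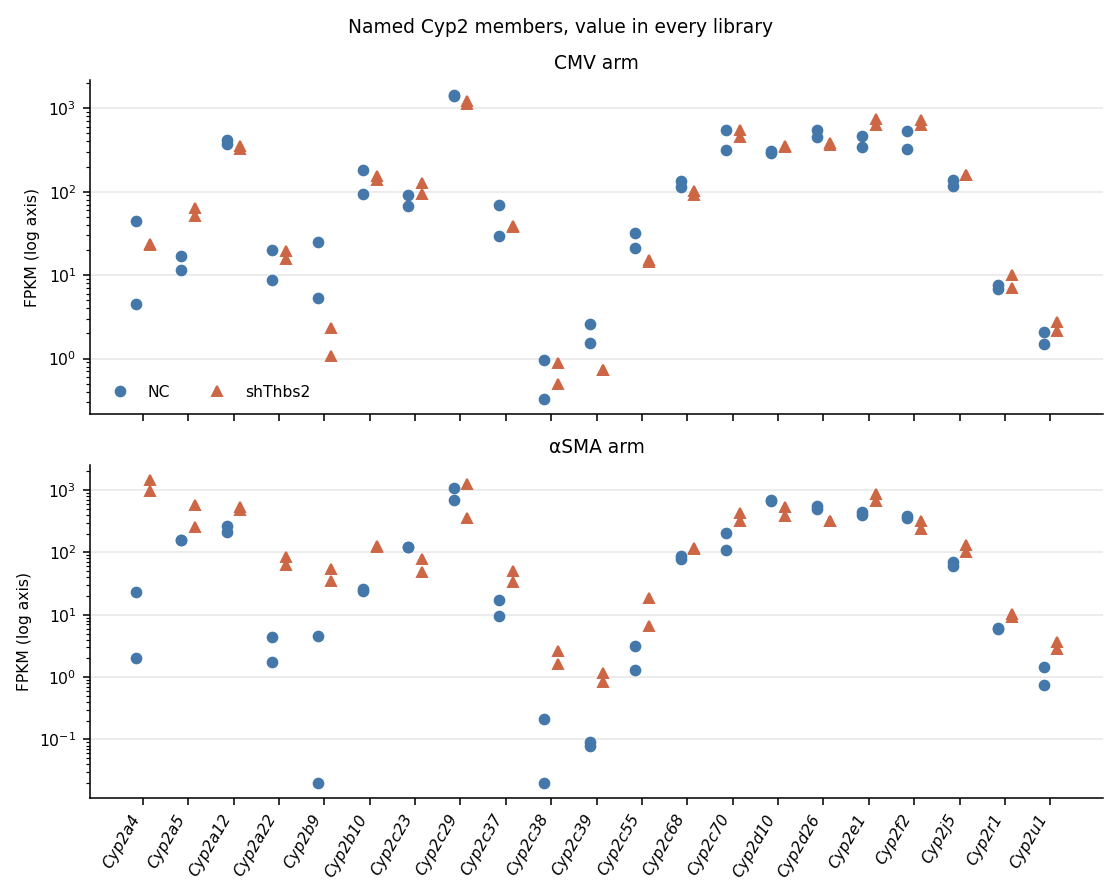
FPKM (log axis) of the named Cyp2 members in every library, circles for NC and triangles for shThbs2, with the CMV arm above and the αSMA arm below. In the αSMA panel the knockdown values of Cyp2a4 (971 and 1457 FPKM), Cyp2a22 and Cyp2b9 stand far above the controls, while those of Cyp2c23 and Cyp2d26 lie below them.

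**Figure D5:**
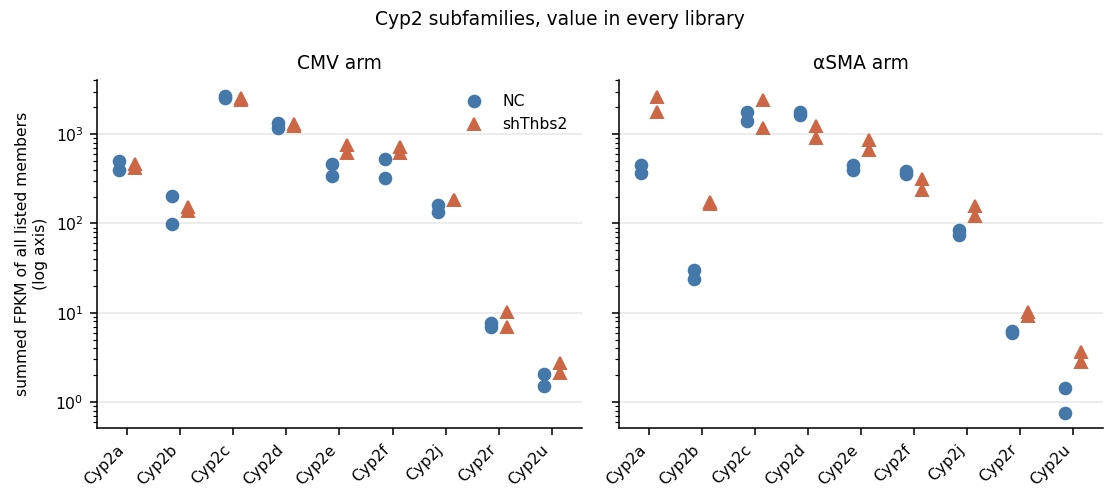
Summed FPKM (log axis) of all listed members of each Cyp2 subfamily in every library, circles for NC and triangles for shThbs2. In the αSMA arm the Cyp2a and Cyp2b sums are 5.34 and 6.31 times those of the controls and the Cyp2d sum is 0.624 times; the CMV ratios of these subfamilies lie between 0.962 and 1.00.

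The sum over all Cyp2 members was 5396 and 5517 FPKM in the CMV controls and 5823 and 5932 FPKM in the knockdown, a ratio of 1.08. Under the αSMA vectors it was 4389 and 4886 against 7579.9 and 5299 FPKM, a ratio of 1.39, or 1.04 when the libraries were rescaled to the same FPKM sum.

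The difference between the arms was tested itself, in 1 limma model of all 8 libraries over the 10245 features tested in both. Of 28 members tested there, 11 passed, or 39.3% against 25.1% of all features. The αSMA change was above the CMV change for 8, namely Cyp2b9 by 6.52 on the log2 scale (limma adjusted p = 0.00823), Cyp2a4, Cyp2a22, Cyp2c55, Cyp2b10, Cyp2c37, Cyp2a12 and Cyp2c68. It was below for 3, namely Cyp2c23 by 1.41 (a difference of −1.41, limma adjusted p = 0.0263), Cyp2f2 and Cyp2d10. The number of calls changed with the library left out, among the members and over all features. With 1 library left out, the difference lay between 5.29 and 7.75 for Cyp2b9 and between −1.76 and −1.06 for Cyp2c23. Both changes were above 0 for 12 members and below 0 for 2, and the signs were opposite for 14. Across the 28 members the 2 sets of changes had Pearson's r = −0.15 and Spearman's rho = −0.003. Members share libraries and reads, so these describe the 8 libraries only.

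Genes around the family are given here from lists of P450 partners, heme enzymes, regulators and comparable targets. With CMV vectors limma called 0 of the 106 tested genes of these lists outside the family, and 27 had an unadjusted p under 0.05 (13 higher, 14 lower). In the αSMA arm it called 39 of 103, or 37.9%, which is near the 36.1% of all tested features. There 53 had an unadjusted p under 0.05 (30 higher, 23 lower). The counts of single lists that follow are descriptions. No list was tested as a set, and the pooled share does not show whether a single list stands apart. Of all tested αSMA features 13.3% were called higher and 22.8% lower. In the αSMA arm Nr1i3, which encodes the receptor CAR, rose from 9.30 and 7.29 FPKM to 47.5 and 38.6 FPKM (log2 change 2.25, limma adjusted p = 0.00563). It was 34.9 and 43.6 against 27.5 and 33.5 FPKM in the CMV arm (−0.35, adjusted p = 0.553). Of the 7 Cyp2 members known to be induced through CAR or PXR, 3 rose in the αSMA arm (Cyp2b10, Cyp2c37 and Cyp2c55), with a median of 1.25. The other 4 were not called, namely Cyp2a5 (1.25), Cyp2c54 (0.37), Cyp2c50 (−0.006) and Cyp2c29 (−0.35). Of 12 CAR and PXR targets outside the family 4 rose and 2 fell, with a median of 0.33. The other 6 were not called, among them Cyp3a11 (0.26, limma adjusted p = 0.376). Gstm2, a glutathione transferase, rose from 20.3 and 17.8 FPKM to 174 and 148 FPKM (3.02, limma adjusted p = 0.00241), and Sult1e1, a sulfotransferase of estrogens, fell (−2.49, adjusted p = 0.028). Of 21 regulators 2 rose and 6 fell, the latter including Ppargc1a, a coactivator of fasting genes (−1.51, adjusted p = 0.00881), and Ppara (−0.64, adjusted p = 0.0337).

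Among 6 electron donors and partners, Cyb5a, a cytochrome that passes electrons to P450 enzymes, rose in the αSMA arm (0.83, limma adjusted p = 0.0314) and 0 fell. Of 12 heme genes 3 rose and 2 fell, with Alas1, the rate-limiting enzyme of heme synthesis, at 517 and 476 against 219.8 and 173 FPKM (−1.34, adjusted p = 0.0101). Of 18 P450 genes of families 1, 3 and 4, 4 rose and 2 fell. Cyp4f15 rose (2.46, adjusted p = 0.00563), as did Cyp1a1, a target of the aryl hydrocarbon receptor (2.19, adjusted p = 0.00554), while Cyp3a13 fell (−1.21, adjusted p = 0.00917).

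Sex-biased genes were examined because Cyp2a4 and Cyp2b9 are female-biased and Cyp2d9 is male-biased. Of the 4 sex-biased Cyp2 members tested in the αSMA arm, Cyp2a4 and Cyp2b9 passed as higher and 0 passed as lower. The male-biased Cyp2d9 was lower in both knockdown libraries without passing (−1.10, limma adjusted p = 0.0714). The female-biased Cyp2c40 had overlapping groups (0.11, limma adjusted p = 0.688). Outside the family, 1 of 9 male-biased genes fell (Cyp4a12b, −2.22, limma adjusted p = 0.0357), with a median of −0.98, and 0 of 4 female-biased genes passed, with a median of 0.76. In the CMV arm the medians were 1.33 and −0.68. The controls of each arm stood apart on the male-biased genes, so these medians rest on controls that differ: αSMA control 4 was above control 3 in 9 of 9 tested genes (Mup1 at 697 and 124 FPKM), and CMV control 1 was above control 2 in 10 of 10. The growth hormone targets Socs2 (−1.32, adjusted p = 0.00798) and Cish (−1.54, adjusted p = 0.0387) fell in the αSMA arm, 2 of 8 genes of that list. Eif2s3y, on the Y chromosome, was present in all 8 libraries, between 22.0 and 23.3 FPKM in the CMV arm and between 38.2 and 56.7 FPKM in the αSMA arm. Of 10 pericentral genes 5 rose, and of 10 periportal genes 3 rose and 3 fell.

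Markers of other liver cells are given beside these changes. In the αSMA arm 13.3% of all tested features were called higher and 22.8% lower, and the marker counts are not read as results about those cells. Of 10 stellate cell and myofibroblast markers 3 fell and 0 rose, and the summed level was 151 and 196 FPKM in the controls against 106 and 125 FPKM in the knockdown. Of 6 monocyte and neutrophil markers 4 fell (446 and 514 against 262 and 321 FPKM). Of 8 Kupffer cell markers 1 rose and 2 fell (471 and 302 against 315 and 321 FPKM), and 1 of 7 endothelial markers fell. Of 8 hepatocyte markers 2 rose and 3 fell, with summed levels that overlapped (44470 and 33335 against 40103 and 34811 FPKM). In the CMV arm the hepatocyte sums did not overlap, at 67105 and 66535 FPKM in the controls against 50920 and 46794 FPKM in the knockdown. There 6 of the 8 markers had changes below 0 and 2 above, and 0 were called. The part of cell composition in the Cyp2 changes was not tested.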

How the data were processed

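Polyadenylated liver RNA of 8 mice was sequenced in 2 arms. FPKM values were deposited by the authors in a separate table for each arm, and each table was normalised alone. The submitters' processing notes name build GRCm38 and the tools Bowtie2 2.3.5, HISAT2 2.1.0, HISAT and Cufflinks, without a link from tool to table. Read counts were not used here, and no counting interval is given.

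Each arm was fitted with limma 3.58.1 in R 4.3.3 on log2(FPKM + 1) (empirical Bayes with a trend, two-sided, no replicate block, 2 residual degrees of freedom). A feature needed a mean of 1 FPKM or more to be tested, which left 10916 in the CMV arm and 13012 in the αSMA arm. P-values were adjusted by Benjamini and Hochberg, with a threshold of 0.05. The script was tested on simulated data. Libraries were taken as 1 mouse each; otherwise p-values measure only the spread between libraries. Replicate numbers did not pair the libraries.

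Members with an adjusted p under 0.05 in an arm or between arms, the highest of each subfamily and the 5 smallest p per arm are named with every library. From the other lists, up to 4 genes with the smallest p are named. The members and lists were chosen with earlier results of these data known. Shared windows and coordinates come from GENCODE M21, promoters from RefSeq, motifs and alignments from Python 3.11.15 with Biopython 1.88. The settings varied were the pseudocount (0.1), the filter (none, or 5 FPKM), the scaling (same sum, same nuclear sum, median centring), a replicate block, the joint model and the libraries, each left out in turn.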

Additional observations from a re-analysis of the deposited data

Results flagged for a closer look

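For 11 members the effect of shThbs2 differed between the arms in the limma model of all 8 libraries (αSMA change minus CMV change, log2). That is 39.3% of the 28 members tested in both arms, beside 25.1% of all features tested in both. The difference was 6.52 for Cyp2b9 (SE 1.14, limma adjusted p = 0.00823), 6.51 for Cyp2a4 (SE 1.48, 0.017) and 3.90 for Cyp2a22 (SE 0.57, 0.00502). For Cyp2b10 it was 2.15 (SE 0.37, 0.00793) and for Cyp2a12 1.28 (SE 0.23, 0.00876). These genes share the chromosome 7 cluster. For its other tested members the difference was below 0, for Cyp2f2 as given below and for Cyp2a5 at −0.70 (limma adjusted p = 0.303). The Cyp2a5 difference was not called, and its changes were above 0 in both arms (1.95 CMV, 1.25 αSMA). In the Cyp2c cluster the difference was 2.75 for Cyp2c55 (limma adjusted p = 0.0164), 1.84 for Cyp2c37 (0.0426), 0.82 for Cyp2c68 (0.026) and −1.41 for Cyp2c23 (0.0263). It was −1.13 for Cyp2f2 (0.0403) and −0.81 for Cyp2d10 (0.0452). Cyp2a12, Cyp2a22, Cyp2b9 and Cyp2b10 kept the call under all 15 alternatives, with a highest limma adjusted p of 0.0421, 0.0278, 0.0374 and 0.0387. The call was lost in 3 of the 15 for Cyp2c55, 4 for Cyp2a4, 5 for Cyp2c23, 7 for Cyp2c37, 8 for Cyp2c68, 8 for Cyp2f2 and 10 for Cyp2d10, with the sign kept. Vector, platform and provider differ together between the arms, so their parts cannot be told apart.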

How the results depend on the processing

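The depth is unknown and 2 libraries per group leave 2 residual degrees of freedom, so single libraries carry much weight. In fits without 1 library, the lone library of its group was assumed to vary like the other group. The number of CMV calls changed with the control left out, among the members and over all features. The CMV change of Cyp2a4 reversed to −0.92 without control 1 and was 2.15 without control 2. The median αSMA change of the tested members lay between 0.45 and 0.67 in these fits. The difference between arms lay between 4.98 and 8.04 for Cyp2a4 and between −1.05 and −0.56 for Cyp2d10.

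With no filter, 6 αSMA members were higher and 0 lower (median 0.26), and 1 member was lower in the difference. With the same FPKM sum, which moved the median of all αSMA features by −0.34, 6 were lower (median 0.10), and 6 in the difference. With the same nuclear sum (shift −0.17) 5 were lower (median 0.29). Median centring (shift 0.22) left 0 lower in the arm (median 0.70) and 0 in the difference. The joint model gave 15 higher and 4 lower, where 49.6% of all features were called. Over all αSMA features the calls were 7.28% with no filter, 52.1% with the same sum, 42.4% with the same nuclear sum and 33.6% with median centring. In the difference they were, in the same order, 14.8%, 45.6%, 32.4% and 21.8%. With the same sum the αSMA ratios were 4.76 for Cyp2b, 0.469 for Cyp2d, 1.37 for Cyp2e, 0.554 for Cyp2f, 1.31 for Cyp2j and 1.19 for Cyp2r, and Cyp2r was 1.37 with the nuclear sum.

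Same-numbered libraries did not deviate together (correlation 0.040 in the CMV arm and 0.0013 in the αSMA arm). With the replicate block 12 αSMA members were higher and 2 lower, 0 CMV members passed, and 8 and 3 differed between arms. Over all features the block called 33.2% in the αSMA arm, 0.156% in the CMV arm and 21.7% in the difference. Of 237 single-member values from alternatives in the αSMA arm, 66 lost a call and 10 gained one. No called value changed sign there, but the uncalled change of Cyp2c29 did in 1 alternative, at 0.54 against −0.35.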

Other observations

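Pseudogenes of the family that the name rule leaves out were listed in the αSMA table. Cyp2d37-ps measured 0.82 and 1.32 FPKM with NC and 15.8 and 7.69 FPKM with shThbs2 (a log2 change of 2.55 with a limma adjusted p of 0.00937). Cyp2d38-ps measured 0.85 and 1.28 against 5.32 and 3.23 FPKM (1.33, limma adjusted p = 0.018). Both rose while the summed level of the Cyp2d genes was lower in the same libraries. Cyp2c53-ps was at 2.31 FPKM in knockdown 3 and at 0 in knockdown 4.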
